A study of Mus musculus with 4 samples.

Results

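The genes described here are 38 members of the Wnt pathway, of 21938 protein-coding genes in the annotation used (GENCODE M21, mm10). They were taken from a list of 18 Wnt ligands, 10 Frizzled receptors (Fzd1 to Fzd10), 7 secreted antagonists and 3 genes that act in or respond to the nucleus, Lef1, Tcf7 and Axin2. Each gene was followed through the accessible regions that overlapped its window, which was the gene body plus 20 kb on either side. Open chromatin had been mapped with ATAC-seq, an assay that uses the Tn5 transposase to insert sequencing adapters where DNA is accessible, in the posterior part of forelimb buds of E10.5 mouse embryos with 35 somites. There were 2 wild-type (WT) and 2 Shh-/- libraries, both on a Swiss Webster background, and each library was made from 5000 cells of the paired forelimb buds of a single embryo, amplified over 18 PCR cycles. The Shh-/- embryos are germline null mutants, so that every cell lacks a functional allele, including cells that never see the ligand. The comparison asks whether chromatin around these genes is open in the same places with and without Hedgehog (HH) signaling.

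Wnt proteins are secreted, lipid-modified ligands that bind Frizzled receptors. In the canonical branch, binding stabilizes β-catenin, which enters the nucleus and acts with the LEF/TCF factors, and Axin2 is a widely used target gene and a negative feedback component of this branch. Secreted frizzled-related proteins (Sfrp) bind the ligands, and Dickkopf proteins (Dkk) are best known for binding the LRP co-receptors. In the limb bud, Wnt3 in the ectoderm maintains the apical ectodermal ridge, whereas Wnt5a in the distal mesenchyme drives outgrowth through non-canonical signaling.

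The sequences that carry the patterns described below come from the RefSeq copy of GRCm38.p6, the assembly of mm10. They are the plus strand of 200 bases centred on a peak summit. Of a region's peaks, the one ranked highest as percent from the top of its own list was used. For every sequence shown this peak came from WT replicate 1. Where the 200 bases would run into a UTR, as at the Axin2 promoter, only 27 bases, the matched word with its surroundings, are given. Distances are from the nearest annotated transcription start site (TSS) of the gene. The first set shows regions called in both WT libraries and in neither Shh-/- library, at Wnt11 (chr7:98838030-98838229, promoter, at -0.716 kb from a TSS), Wnt9a (chr11:59304980-59305179, promoter, at -1.85 kb) and Dkk2 (chr3:132087104-132087303, intron, at 1.91 kb). The capitals in Wnt9a mark a match to the sequence bound by GLI factors, the transcription factors of the HH pathway.
Wnt11 promoter: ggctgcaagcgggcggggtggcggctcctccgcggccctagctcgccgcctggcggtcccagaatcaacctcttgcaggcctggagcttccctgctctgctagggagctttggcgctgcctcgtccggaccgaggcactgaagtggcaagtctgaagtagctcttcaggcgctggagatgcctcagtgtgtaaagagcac
Wnt9a promoter: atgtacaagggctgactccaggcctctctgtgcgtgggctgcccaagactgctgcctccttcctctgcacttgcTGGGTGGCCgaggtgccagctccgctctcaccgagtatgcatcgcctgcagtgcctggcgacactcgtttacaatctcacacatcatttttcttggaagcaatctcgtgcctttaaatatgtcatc
Dkk2 intron: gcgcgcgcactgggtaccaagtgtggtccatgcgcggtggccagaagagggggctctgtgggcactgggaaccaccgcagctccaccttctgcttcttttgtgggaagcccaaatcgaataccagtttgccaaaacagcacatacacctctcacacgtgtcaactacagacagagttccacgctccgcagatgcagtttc

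The second set shows regions that were called in most or all libraries. They are a flank of Wnt5a (chr14:28542167-28542366, 30.9 kb after a TSS), a flank of Wnt11 (chr7:98815700-98815899, at -19.3 kb), the Fzd10 promoter (chr5:128600421-128600620), the Axin2 promoter in the 5′ UTR (chr11:108920417-108920443) and an Axin2 intron (chr11:108947399-108947598, 24.3 kb after a TSS). The Wnt11 flank, the Fzd10 promoter and the Axin2 intron were chosen for display after their values were seen. Capitals mark matches to the LEF/TCF sequence and, in Fzd10, also a match to the GLI sequence (the later of the pair, GACCACCCT).
Wnt5a flank: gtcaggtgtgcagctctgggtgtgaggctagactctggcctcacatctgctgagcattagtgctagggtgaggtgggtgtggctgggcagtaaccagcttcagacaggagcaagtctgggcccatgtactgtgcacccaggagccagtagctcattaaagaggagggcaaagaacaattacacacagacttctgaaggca
Wnt11 flank: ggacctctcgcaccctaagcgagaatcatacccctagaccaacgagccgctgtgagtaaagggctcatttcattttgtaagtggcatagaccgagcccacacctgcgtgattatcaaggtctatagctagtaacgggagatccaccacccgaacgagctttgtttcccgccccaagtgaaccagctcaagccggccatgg
Fzd10 promoter: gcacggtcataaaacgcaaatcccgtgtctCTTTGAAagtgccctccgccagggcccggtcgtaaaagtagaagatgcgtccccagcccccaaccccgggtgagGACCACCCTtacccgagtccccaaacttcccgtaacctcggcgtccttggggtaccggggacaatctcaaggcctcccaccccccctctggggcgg
Axin2 promoter: gccggctgcgCTTTGATaaggtcctgg
Axin2 intron: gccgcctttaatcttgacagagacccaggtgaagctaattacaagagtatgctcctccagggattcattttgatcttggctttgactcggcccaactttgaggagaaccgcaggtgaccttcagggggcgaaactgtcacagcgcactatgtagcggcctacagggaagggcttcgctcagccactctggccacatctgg

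The peak lists were of very unequal length, at 39080 and 11973 peaks in WT replicates 1 and 2 and 5589 and 18459 peaks in Shh-/- replicates 1 and 2. A peak that is missing from a list was not called, and the lists hold no reads, so depth is unknown and a missing peak does not show closed chromatin. In addition to the call itself, the rank of a peak within its own list, by the score deposited with it, was used (rank 1 is the highest score, and peaks with equal scores share a rank). The lists give no check of the mutation, because no peak overlapped an exon or the promoter of Shh in any library. Of 6 limb mesenchyme markers (Prrx1, Prrx2, Twist1, Msx1, Tbx5 and Hand2), 6, 3, 2 and 3 had a promoter peak in WT replicates 1 and 2 and Shh-/- replicates 1 and 2, the order in which the libraries are given from here on. The counts were 2, 0, 0 and 2 of 6 ectoderm markers, 1, 0, 0 and 1 of 4 endothelial markers, 2, 1, 0 and 1 of 4 blood markers and 3, 1, 0 and 3 of 3 muscle progenitor markers. In these bulk samples, fewer cells of a type and less accessibility per cell cannot be told apart.

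A promoter peak (from 2 kb before to 1 kb after a TSS) was called for 33, 14, 7 and 22 of the 38 Wnt pathway genes. These are 86.8%, 36.8%, 18.4% and 57.9% of the genes, beside 60.4%, 39.2%, 17.3% and 51.3% of all protein-coding genes. The share exceeded that of all genes most in WT replicate 1, the longest list, and lay below it in WT replicate 2. These shares do not account for promoter class, which is taken up below. The WT mean was 23.5 ± 13.4 genes and the Shh-/- mean 14.5 ± 10.6 genes (SD, n = 2 each), a difference of 9.0 that was smaller than the spread within WT (exact permutation test over the 4 libraries, two-sided, p = 0.667, with 0.333 the smallest value this design allows). Without WT replicate 1 the difference turned to -0.500 genes, and with every list held to its 5589 best peaks the counts were 7, 8, 7 and 7. Of the 21938 protein-coding genes, 5602, 5578, 3785 and 5520 were called at that length. The Wnt pathway share was then below that of all genes in every library but Shh-/- replicate 1. A peak anywhere in the window was called for 36, 24, 9 and 30 genes (94.7%, 63.2%, 23.7% and 78.9%, against 74.7%, 57.3%, 32.5% and 67.0% of all genes). The means were 30.0 ± 8.49 in WT and 19.5 ± 14.8 in Shh-/- (SD, n = 2 each), and the groups overlapped (exact permutation test, two-sided, p = 0.667). Without Shh-/- replicate 1 this difference was 0, and at equal list length the counts were 11, 12, 9 and 11. Apart from Shh-/- replicate 1, whose list is unchanged, the window share of all genes was not computed at equal list length. Peaks in the windows made up 0.489%, 0.317%, 0.197% and 0.336% of the lists, and 0.233%, 0.215%, 0.197% and 0.215% at equal list length.

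The roles were not called alike. Frizzled receptors, the seven-pass membrane proteins that bind Wnts, had a promoter peak for 9, 9, 6 and 10 of 10 genes, whereas the ligands had one for 14, 3, 0 and 5 of 18. Among the antagonists the counts were 7, 1, 0 and 4 of 7, and among Lef1, Tcf7 and Axin2 they were 3, 1, 1 and 3. Hence in Shh-/- replicate 1, where 17.3% of all genes were called, the receptors stood at 60% and the ligands at 0%. At equal list length there were 6, 7, 6 and 6 receptors, no ligand and no antagonist in any library, and Axin2 in each. All protein-coding genes had 5602, 5578, 3785 and 5520 of 21938 called at that length. Another 40 genes of the pathway (co-receptors, the destruction complex, R-spondins and their receptors and others) had a promoter peak in 35, 26, 7 and 29 cases. These are counts of genes in 4 libraries, and no test was made between roles since genes are not replicates.

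**Figure D1:**
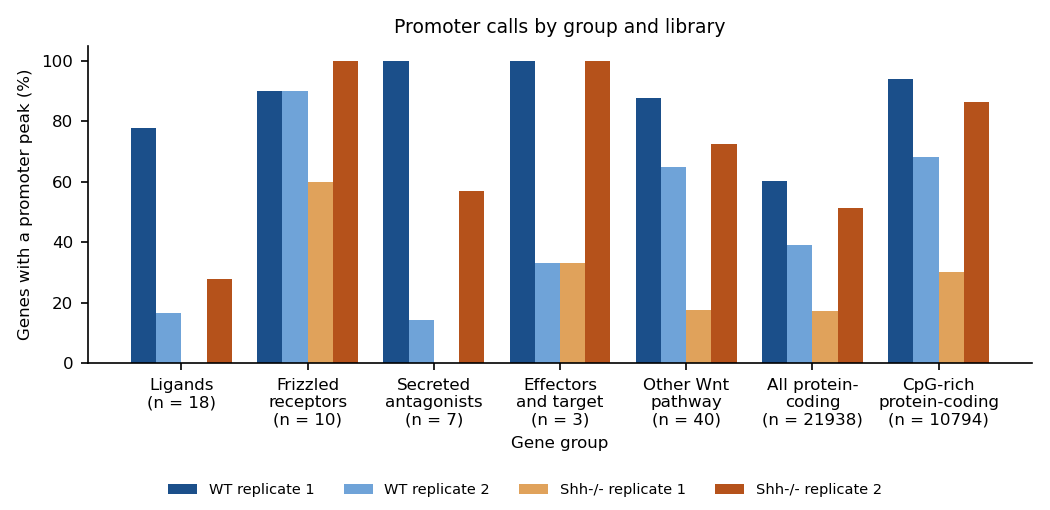
Percent of genes with a promoter peak (y axis) in each gene group (x axis, with the number of genes), 1 bar for each of the 4 libraries. The Frizzled receptors keep a promoter peak in 60% of genes in the shortest list, Shh-/- replicate 1, where the ligands and antagonists have none.

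The receptors also share a promoter class. All 10 have CpG-rich promoters (within 500 bp of the TSS, a GC content of at least 50% and a CpG ratio, observed over what base composition gives, of at least 0.6), as do 13 of the 18 ligands and 29 of the 38 genes. CpG-rich promoters were called in 93.9%, 68.3%, 30.1% and 86.5% of 10794 protein-coding genes. The 29 CpG-rich genes of the Wnt pathway list, at 89.7%, 48.3%, 24.1% and 69.0%, were below this class in every library. Set beside that class the receptors, at 90%, 90%, 60% and 100%, were close to it in WT replicate 1 and above it in the other libraries. The 13 CpG-rich ligands, with 11, 3, 0 and 5 called, were below it in every library. Of the 7 antagonists 3 have CpG-rich promoters, with 3, 1, 0 and 2 called. The 9 genes with CpG-poor promoters were called in 7, 0, 0 and 2 cases, against 27.9%, 11.1%, 4.81% and 17.1% of CpG-poor genes. The peaks at receptor promoters were long, with a median of 1257, 683, 610 and 1268 bp, where the promoter peaks of all genes had 772, 513, 392 and 706 bp. Lengths within the CpG-rich class were not computed, so promoter class and role are not separated in this comparison. The 3 libraries with called ligand promoters had median lengths of 600, 581 and 469 bp at them.

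Fzd1, Fzd2, Fzd4, Fzd5, Fzd7, Fzd10 and Axin2 were the genes with a promoter peak in all 4 libraries. They are 7 of 38, or 18.4%, against 16.1% of all protein-coding genes, and 6 of them are receptors. Fzd7 had the lowest mean rank (1585, a mean over lists of unequal length), at ranks 1895, 2101, 385 and 1958. As percent from the top of each list these were 4.85%, 17.5%, 6.89% and 10.6%. Fzd4, a receptor also bound by norrin, ranked 2437, 2101, 1566 and 2295. Fzd5 ranked 1607, 1881, 3521 and 1439, Fzd2 ranked 2983, 1881, 2717 and 1866, and Fzd1 ranked 2983, 1697, 1912 and 4883. Like ranks are unlike positions in lists of unequal length. In Shh-/- replicate 1, Fzd4, Fzd5, Fzd2 and Fzd1 lay at 28.0%, 63.0%, 48.6% and 34.2% from the top. In WT replicate 1 they lay at 6.24%, 4.11%, 7.63% and 7.63%, with the remaining libraries between. Fzd10 was lower in all lists, at 5596, 4888, 4510 and 6310 (14.3%, 40.8%, 80.7% and 34.2% from the top). In the first and last of them it would not be among the 5589 best peaks. Part of its promoter lies in the promoter window of the neighbouring 5930412G12Rik, so the peak cannot be given to Fzd10 alone.

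**Figure D2:**
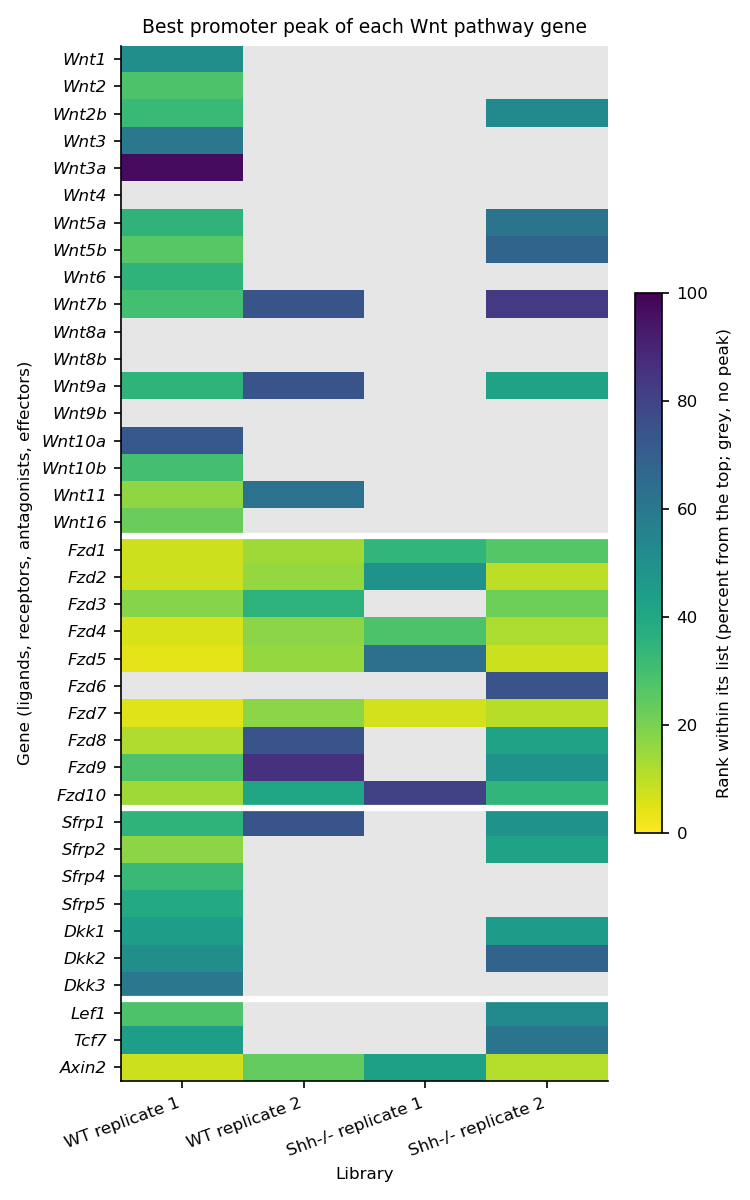
Rank of the best promoter peak of each of the 38 genes in the 4 libraries, as percent from the top of the library's own list (colour scale), with grey for no peak and white lines between ligands, receptors, antagonists and effectors. Fzd7 lies in the top 6.89% of Shh-/- replicate 1, while the ligands are grey throughout that library.

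The other receptors were called less evenly. Fzd3, which acts in planar polarity and axon guidance, ranked 7161, 4243 and 4035 in the 3 libraries other than Shh-/- replicate 1. Fzd8 (4714, 8858 and 7805) and Fzd9 (10857, 10265 and 8993) were called in the same libraries. Both peaks were weak in WT replicate 2, at 74.0% and 85.7% of that list. Fzd6, a planar polarity receptor, had a single peak, in Shh-/- replicate 2. It ranked 13750, or 74.5% from the top of that list, and lay within the promoter window of Gm26704 as well. Without Shh-/- replicate 1, 13 of the 38 genes had a promoter peak in every library left (34.2%, against 37.2% of all genes), since Wnt7b, Wnt9a and Sfrp1 joined Fzd3, Fzd8 and Fzd9.

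Among the ligands, Wnt11, which signals mainly through the non-canonical branch, had the lowest mean rank over the libraries in which a promoter was called, and its window held 18, 2, 1 and 3 peaks. Its promoter peaks ranked 6444 in WT replicate 1 and 7510 in WT replicate 2, and none was called in either Shh-/- library. In WT replicate 2 this rank lies at 62.7% of the list, so the peak is a weak one there. The flank at -19.3 kb (merged region chr7:98814909-98816696) was called in every library, at ranks 2127, 1056, 2717 and 3215, or 5.44%, 8.82%, 48.6% and 17.4% from the top of the lists, ahead of the promoter in both WT libraries. It was the only region outside a promoter that all 4 libraries shared in the windows of the 38 genes. Wnt16 was called once, at its promoter in WT replicate 1 (rank 8950), and had no other peak. That single rank was the next lowest mean among the ligands, but it comes from 1 list and is not comparable with means over several.

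Wnt5a had 6, 2, 0 and 7 peaks in its window. Its gene body is at chr14:28504750-28527448 (plus strand). Promoter peaks were called in WT replicate 1 at rank 13699 and in Shh-/- replicate 2 at rank 11386, and in neither of the shorter lists. The flank 30.9 kb after a TSS (merged region chr14:28542101-28542600) was called in all but Shh-/- replicate 1, at ranks 11668, 7510 and 7269, ahead of the promoter in the 2 longer lists. An intron region 2.87 kb after a TSS (chr14:28507438-28507931) was present in the lists of both WT embryos alone, at ranks 19761 and 7510. A Wnt5a promoter peak was thus present in the longer list of each genotype and absent from the shorter list of each.

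**Figure D3:**
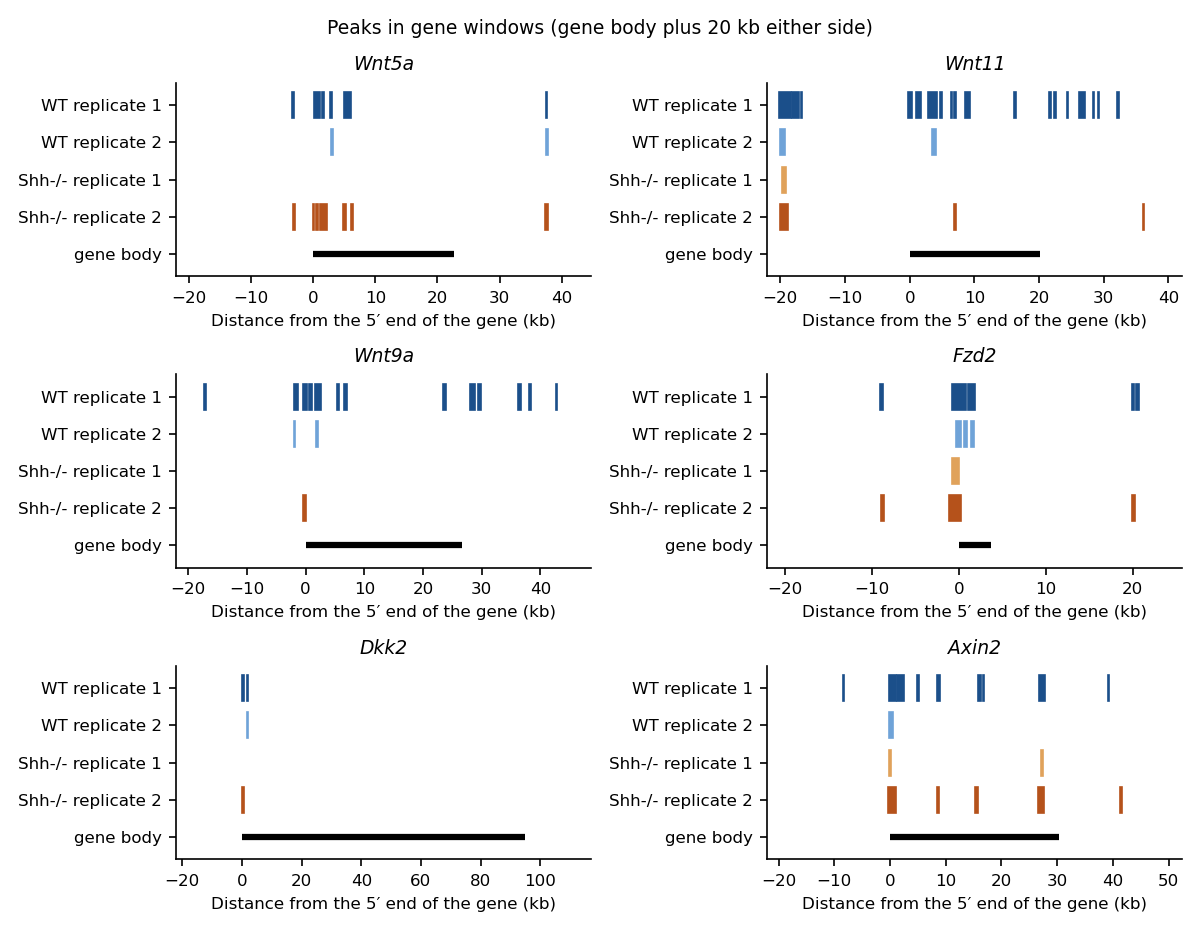
Peaks of each library (coloured blocks, 1 line per library) against distance from the 5′ end of the gene in kb, in the windows of Wnt5a, Wnt11, Wnt9a, Fzd2, Dkk2 and Axin2, with the gene body in black. The flank of Wnt11 and the promoters of Fzd2 and Axin2 are covered in all 4 libraries, while Wnt5a has no peak in Shh-/- replicate 1.

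Wnt3, with its gene body at chr11:103774150-103817957 (plus strand), had 7, 0, 0 and 1 peaks in its window. Its promoter was called in WT replicate 1 alone, at rank 23486 of 39080, and the single peak of Shh-/- replicate 2 was in an intron at rank 16879 of 18459. Wnt3 was put with Wnt4, Wnt6, Wnt7b and Wnt10a in a set known in limb ectoderm. Of this set 4, 1, 0 and 1 of 5 had a promoter peak. The set known in mesenchyme (Wnt5a, Wnt11, Sfrp2 and Dkk2) had 4, 1, 0 and 3 of 4. The share of all protein-coding genes was 60.4%, 39.2%, 17.3% and 51.3%. With any peak in the window, the counts were 5, 1, 1 and 4 of 5 for the ectodermal and 4, 3, 1 and 4 of 4 for the mesenchymal set. All protein-coding genes stood at 74.7%, 57.3%, 32.5% and 67.0%. Both sets are small, were chosen by hand and may leave out other genes of these sites. The ectoderm markers themselves had few promoter calls (2, 0, 0 and 2 of 6), and the part of cell number in these counts was not tested.

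The remaining ligands had few calls outside WT replicate 1. Wnt7b (18, 4, 1 and 1 peaks) and Wnt9a (13, 2, 0 and 1 peaks) were the only ligands with promoter peaks in 3 libraries. For Wnt7b they ranked 11668, 8858 and 15320, and for Wnt9a 13699, 8858 and 7805, in the libraries other than Shh-/- replicate 1. In neither gene was a single promoter region called in all of these libraries. The Wnt7b peak of WT replicate 2 (chr15:85577436-85578040) was a region of its own. The Wnt9a peak of Shh-/- replicate 2 lay in a region (chr11:59306522-59307116) called elsewhere only in WT replicate 1. Wnt2b and Wnt5b had promoter peaks in WT replicate 1 and Shh-/- replicate 2, at ranks 12610 and 9727 for Wnt2b and 10136 and 12483 for Wnt5b. With Wnt5a, 3 of 18 ligands (16.7%) were called in those libraries only. The pattern held for 8 of the 38 genes (21.1%), against 11.8% of all protein-coding genes. Wnt1, Wnt2, Wnt3, Wnt3a, Wnt6, Wnt10a, Wnt10b and Wnt16 had one in WT replicate 1 only, at ranks from 8950 for Wnt16 to 37920 for Wnt3a. They are 8 of 18 ligands (44.4%). Of the 38 genes, 11 (28.9%) were called in WT replicate 1 only, against 8.80% of all protein-coding genes. Wnt4, Wnt8a, Wnt8b and Wnt9b had no promoter peak in any library (4 of 38, against 37.9% of all genes), and Wnt8a was the gene with no peak anywhere in its window. Neighbouring ligands share peaks. The windows of Wnt6 and Wnt10a, 6.19 kb apart, had 8, 0, 0 and 1 peaks in common, those of Wnt3a and Wnt9a 5, 2, 0 and 1, and those of Wnt1 and Wnt10b 5, 0, 0 and 0.

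All 7 antagonists had a promoter peak in WT replicate 1 and none had one in Shh-/- replicate 1. Sfrp2, which is made in limb mesenchyme, had the lowest mean rank of the antagonists over the libraries in which they were called, with 6788 in WT replicate 1 and 7805 in Shh-/- replicate 2. Sfrp1 was called at ranks 13699, 8858 and 8993, and was the only antagonist with a promoter peak in WT replicate 2. Dkk1, an antagonist required for head and limb patterning, was called in WT replicate 1 at rank 17141 and in Shh-/- replicate 2 at rank 8361, and Dkk2 in the same libraries at ranks 19761 and 12483. Sfrp4, Sfrp5 and Dkk3 had promoter peaks in WT replicate 1 alone, at ranks 12610, 15186 and 23486 (3 of 7 antagonists, against 8.80% of all protein-coding genes).

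Axin2 (chr11:108920349-108950783, plus strand) differed from Lef1 and Tcf7. Its promoter was called in every library, at ranks 2983, 2885, 2418 and 2052, and its window held 9, 1, 2 and 5 peaks. These ranks lie at 7.63%, 24.1%, 43.3% and 11.1% from the top of the lists. An intron region 24.3 kb after a TSS (chr11:108946901-108948138) was called in all but WT replicate 2, at ranks 3426, 3101 and 3380, close to those of the promoter. Lef1 had 12, 1, 0 and 7 peaks, with promoter ranks of 10857 in WT replicate 1 and 9727 in Shh-/- replicate 2. A region at -4.25 kb from its TSS ranked ahead of the promoter in both, at 8950 and 7269, and was also the single Lef1 peak of WT replicate 2, at rank 5578. Tcf7 had 11, 1, 0 and 2 peaks, with promoter ranks of 17141 and 11386 in WT replicate 1 and Shh-/- replicate 2. The best peak in its window, at ranks 4340 and 1775 in the same libraries, lay in the promoters of Skp1a and Gm12207, not of Tcf7.

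Overlapping peaks of the 4 lists were merged into regions, of which 207 of 44692 lay in the windows. By place, 62 overlapped a promoter of their own gene, 19 the promoter of another gene, 9 an exon, 54 an intron and 63 a flank. WT replicate 1 alone held 131 of the 207 (63.3%, against 51.6% of all regions), and 8 were called in all 4 libraries (3.86%, against 7.97%). The regions shared by all libraries were the promoters of the 6 receptors and Axin2 and the Wnt11 flank. There were 10 regions called in both WT and in no Shh-/- library (WT-specific, 4.83% against 2.09% of all regions) and 0 of the reverse kind (Shh-specific, 0.396% of all regions). The WT-specific count was 0 at equal list length, 1 with scores of at least 50, and 17, 141, 10 and 24 without WT replicate 1, WT replicate 2, Shh-/- replicate 1 and Shh-/- replicate 2. Shares of all regions were not computed for these settings. Without WT replicate 2 the count takes in the regions of WT replicate 1 alone, which are 51.6% of all regions. The Shh-specific count was 2, 11 and 1 without WT replicate 1, Shh-/- replicate 1 and Shh-/- replicate 2.

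**Figure D4:**
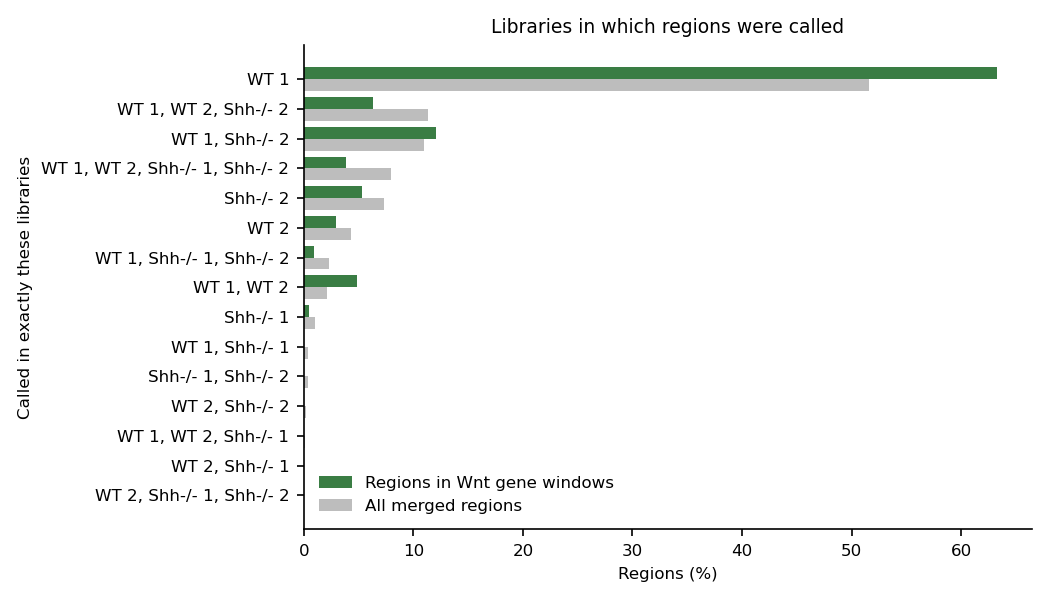
Percent of merged regions (x axis) called in exactly the libraries named on the y axis, for the 207 regions in the windows of the 38 genes (green) and all 44692 regions (grey). Regions of WT replicate 1 alone are 63.3% of the green bars, and regions of both WT libraries alone are 4.83%.

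The 10 WT-specific regions lay in the windows of Wnt1, Wnt3a, Wnt5a, Wnt9a, Wnt11, Fzd2, Fzd5, Dkk2 and Tcf7, and ranked between 40.8% and 85.7% of the WT replicate 2 list. The Dkk2 intron (chr3:132086891-132087423) had the best ranks after Wnt11 in WT replicate 1, at 9512, and the best in WT replicate 2, at 4888, or 40.8% of that list. The Wnt11 promoter region (chr7:98837899-98839396) ranked 6444 and 7510. Wnt9a had a promoter region (chr11:59304904-59305577, ranks 13699 and 8858) and an intron region (chr11:59308570-59309483, ranks 15186 and 10265), both of them also within the window of Wnt3a. A Wnt9a promoter region nearer the TSS (chr11:59306522-59307116) was not WT-specific, as it was called in WT replicate 1 and Shh-/- replicate 2. Wnt3a itself had an intron region (chr11:59276530-59276825, ranks 23486 and 8858). Fzd2 had a region in its exon, beside a promoter called in all libraries (chr11:102605482-102606222, ranks 19761 and 8858). Fzd5 had one 1.63 kb after its TSS (chr1:64735761-64736874, ranks 15186 and 8858) that also touches the promoter of Gm38058. Tcf7 had one 23.9 kb after its TSS (chr11:52258481-52258933, ranks 23486 and 10265), and the region near Wnt1 (chr15:98805969-98807302, ranks 17141 and 8858) is at the promoters of Ddn and B130046B21Rik. The part of list length in their absence from the Shh-/- lists was not tested beyond the counts given above.

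Sequence matches were counted in the 200 bases around the best summit of each region, on both strands. The LEF/TCF sequence, searched as CTTTGAA and CTTTGAT, was present in 15 of the 207 regions (7.25%), against 5.28% of all regions. The GLI sequence, TGGGTGGTC with at most 1 mismatch, was present in 10 (4.83%), against 5.61%, and these letters do not overlap the LEF/TCF ones. Both shares are near those of all regions. The Axin2 and Fzd10 promoters shown above each held a LEF/TCF match, as did regions at the Wnt5b and Wnt11 promoters, and the rest lay in introns or flanks of Wnt7b, Wnt9a, Wnt11, Fzd2, Fzd7, Fzd10, Sfrp5 and Axin2. The GLI matches lay in the WT-specific promoter region of Wnt9a, in the Fzd10 promoter, in a Wnt5a flank at -3.25 kb and in promoter regions of Sfrp2 and Sfrp5, and the others lay at Lef1 (3 regions), Tcf7 and Axin2. The other WT-specific sequences shown, of Wnt11 and Dkk2, held neither.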

How the data were processed

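ATAC-seq peak lists of 2 WT and 2 Shh-/- libraries were used, with genotype and number taken from the titles. Per the submitters' processing notes, reads were processed with Bowtie2 2.2.5 and MACS2 2.1.0 on mm10, and the study's methods give a q-value cutoff of 0.05. The authors called peaks in each library separately and deposited a score with each peak, which was used only to rank peaks within a list. Fold enrichment and p- or q-values were set to 0 throughout and could not be used. Read depth cannot be taken from the lists.

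The 38 genes and all gene lists were chosen with earlier results of these data known. Peaks overlapping a window or promoter by at least 1 bp were counted (Python 3.11.15, numpy 2.4.6, samtools 1.23.1), and regions were merged over the 4 lists. Counts were checked on simulated lists. Named in every library were Wnt5a, Wnt3, Lef1, Tcf7, Axin2, genes with a genotype-specific region and the 2 of each role with the lowest mean promoter rank over the libraries that called them. Group means were compared by exact permutation tests. Alternatives were a score of at least 50, equal list length (ties by position), promoters of 500 bp on either side, windows without flanks or with 50 kb, summits within 150 bp, and each library left out.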

Additional observations from a re-analysis of the deposited data

How the results depend on the processing

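Over 8 results, 56 of 68 alternatives kept the call: the sign of a difference, whatever its size, or a count within 1.5 times. No p-value threshold entered this tally. The pairings of libraries described below are among the 56, although their mean difference equals the main one by construction. At equal list length the WT minus Shh-/- differences kept their sign but shrank to 0.50 genes with a promoter peak, 1.5 genes with a peak in the window and 0.0179 percentage points of the list, and at a score of at least 50 they were 4.5, 6.0 and 0.046. No cause was tested. Leaving out 1 library at a time, the WT minus Shh-/- difference ranged from -0.500 (without WT replicate 1) to 18.5 genes with a promoter peak, and from 0 (without Shh-/- replicate 1) to 21 genes with a peak in the window. Genes with a promoter peak in every library ranged from 7 to 13, WT-specific regions from 10 to 141 and Shh-specific regions from 0 to 11. WT-specific regions numbered 0 at equal list length and 1 at a score of at least 50. The counts of ligands and receptors with a promoter peak in every library were added after the data were seen, and for ligands the range was 0 to 2 (2 without Shh-/- replicate 1).

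Pairing libraries by replicate number, as a block, left the promoter difference at 9.0 genes with within-pair differences of 26 and -8.0 (exact sign-flip permutation test, p = 1.0). The numbers carry no shared litter or day, and promoter calls of same-numbered libraries deviated in opposite directions (r = -0.215 across 21938 genes, which are not independent). The crossed pairing, added after the data were seen, gave 11 and 7 more genes in WT. The unequal lists limit every count. With 2 libraries a group the permutation tests of group means cannot go below 0.333, and the sign-flip tests cannot go below 0.5.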
